A study of Mus musculus with 61 samples.

Results

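Genes of the bone morphogenetic protein (BMP) response are described here, 10 in number. They are the 3 BMP receptors Bmpr1a, Bmpr1b and Bmpr2, the 4 SMADs Smad1, Smad5, Smad4 and Smad7, and the 3 ID genes Id1, Id2 and Id3. They were taken by name, and all 10 had a row among the 23927 gene rows of the deposited table. The table holds single oocytes and single granulosa cells (the somatic cells that enclose an oocyte) from ovaries of wild-type CD-1 mice at postnatal day 5. The mice had received, by intraperitoneal injection 6 hours earlier, either the solvent (control) or doxorubicin (DOXO), an anthracycline that breaks DNA and is used in chemotherapy. The dose is written as "10 mg/kb", so its unit is not certain. There were 16 control oocytes, 16 DOXO oocytes, 16 control granulosa cells and 13 DOXO granulosa cells, all under 1 batch label. No label names an animal, so each group was counted as 1 sample, its cells were not treated as replicates, and no test between groups was made.

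BMP ligands bind a complex of type I receptors (Bmpr1a and Bmpr1b, also called ALK3 and ALK6) and a type II receptor (Bmpr2). The activated type I kinase phosphorylates Smad1 and Smad5, which enter the nucleus with the common partner Smad4, while Smad7 is an inhibitory SMAD that blocks the receptors. The ID genes are direct targets of this route in many cells, and their proteins bind basic helix-loop-helix (bHLH) factors and keep them off DNA. In the ovary, oocytes make the ligands Bmp15 and Gdf9, somatic cells make others, and both compartments can respond.

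Promoter sequence is shown for Id2, the gene that differed most after DOXO, and for Smad1 and Smad5, a pair of receptor-activated SMADs whose levels differed in opposite directions between the cell types. The sequences are RefSeq promoters on GRCm38.p6, cut to bases that lie in no annotated exon, written 5′ to 3′ on the gene's strand. Capitals mark the SMAD1/5 motifs GGCGCC and GGAGCC and the SMAD3/4 motif GTCT, each searched on both strands.
Id2, chr12:25096254-25096342, minus strand: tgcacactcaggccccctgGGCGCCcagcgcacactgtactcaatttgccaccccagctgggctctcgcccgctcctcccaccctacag
Smad1, chr8:79399519-79399678, minus strand: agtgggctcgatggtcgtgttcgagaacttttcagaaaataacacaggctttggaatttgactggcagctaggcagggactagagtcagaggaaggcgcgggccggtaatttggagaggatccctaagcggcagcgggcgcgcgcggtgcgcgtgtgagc
Smad5, chr13:56702760-56703009, plus strand: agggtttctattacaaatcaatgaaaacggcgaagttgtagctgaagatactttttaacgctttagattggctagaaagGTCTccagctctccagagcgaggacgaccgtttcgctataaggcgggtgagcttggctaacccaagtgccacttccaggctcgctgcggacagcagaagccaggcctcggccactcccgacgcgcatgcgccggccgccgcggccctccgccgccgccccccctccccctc
Smad5 has 3 entries, of which the first upstream is shown, and the Id2 stretch lies inside the gene's annotated span, between exons of a longer transcript. The Id2 stretch holds 1 GGCGCC, the Smad1 stretch holds none of the 3 motifs, and the Smad5 stretch holds 1 GTCT. The Id2 and Smad1 stretches are only 89 and 160 bases long, so their counts cannot be set against shares over 250 bases. The full 250 bases of Id2 also hold 1 GGAGCC and 1 GTCT, and those of Smad1 hold none of the 3. Of the other Smad5 entries 1 holds 1 GGCGCC and 1 holds 1 GGAGCC over 250 bases. Over the 250 bases before the start of all 32851 RefSeq mouse promoters, 9.59% held GGCGCC, 25.97% held GGAGCC and 82.9% held GTCT. Entries for 7 of the 10 genes were used, Id1 had none, and Smad4 and Smad7 were left out of the search.

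On GRCm38 (GENCODE M21), Bmpr1a lies at chr14:34410734-34503341, Bmpr1b at chr3:141837136-142169425 and Smad1 at chr8:79338395-79399518, all on the minus strand. Bmpr2 lies at chr1:59763400-59879014, Smad5 at chr13:56703010-56742377, Id1 at chr2:152736251-152737410 and Id3 at chr4:136143497-136145755 on the plus strand, and Id2 at chr12:25093799-25097140 on the minus strand. Values are counts over all exons of a gene. Bmpr1a overlaps the antisense gene Gm17110 and Bmpr2 overlaps Gm38125, and the sources do not state whether counting used the strand, so reads in those overlaps cannot be assigned with certainty. No pair of the 10 genes shares a run of 50 bases in its transcripts, the longest shared run being 22 bases, between Smad4 and Smad7.

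Totals were 6834594 to 31262609 estimated counts per cell. The oocyte markers summed to 18038 to 66295 counts per 1000000 counts (CPM) in the 16 control and 16 DOXO oocytes. The granulosa libraries were more mixed. In 5 of 16 control and 8 of 13 DOXO granulosa libraries the summed oocyte markers were above the summed granulosa markers. Stroma markers were above granulosa markers in those same 5 control libraries and in 1 DOXO library. DOXO granulosa cell 15 held 33714 CPM of blood markers, mostly haemoglobin. For some levels and ratios of single genes, values without such libraries are also given. Counts of cells with several genes detected together, orders per kilobase, and correlations over granulosa cells used all granulosa libraries. Those results have no version without the mixed libraries.

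In control cells, several of the 10 genes differed in summed CPM between oocytes and granulosa cells. Oocytes had more Smad1 and Smad4, and granulosa cells more Bmpr2, Smad5, Id2 and Id3. Counting a gene as different past 2-fold in summed CPM, 3 of the 10 genes were higher in oocytes (Smad1, Smad4 and the scarce Smad7), 4 were lower and 3 were within 2-fold. Smad7 was under 5 CPM in both groups. Of all genes that reached 5 CPM in 1 of the groups (12371), 29% were at least 2-fold higher in oocytes and 31.3% at least 2-fold lower, so the number of members past 2-fold is near that background. At 1.5-fold 3 were higher and 6 lower, against 37% and 38.7% of all genes. The median log2 ratio was -0.84 over the 10 genes and -0.03 over all genes. A CPM is a share of a cell's own counts, so these are differences in share and not in molecules per cell.

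By summed CPM, Bmpr2, the type II receptor, differed most of the 3 receptors between the cell types. Control oocytes held 1.17 to 15.8 CPM (median 5.70) and control granulosa cells 0 to 169.9 CPM (median 49.8). Every control oocyte lay below the granulosa median, although the ranges overlap. The log2 ratio of oocytes over granulosa cells was -2.95 (95% counting interval -3.03 to -2.86), and it stayed between -3.06 and -2.70 when each cell was left out in turn. Such an interval covers counting error only, and reads without molecular identifiers are not independent molecules.

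Bmpr1b, the type I receptor ALK6, had the same summed level in both cell types but a different spread over cells. Control oocytes held 12.7 to 88.8 CPM (median 41.1), with at least 5 reads in 16 of 16. Control granulosa cells held 0 to 243 CPM (median 2.32), with at least 5 reads in 8 of 16 and 36.7% of the group's reads in granulosa cell 13. Oocytes were thus uniformly positive while the granulosa group mixed empty and very high libraries. The sums gave a log2 ratio of -0.01, whereas medians of log2(CPM + 1) over cells differed by 4.08.

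Bmpr1a, the type I receptor ALK3, was lower in control oocytes by summed CPM but not by median. Control oocytes held 1.63 to 58.2 CPM (median 16.5) and control granulosa cells 0 to 166 CPM (median 14.2). The ranges overlap along their whole length. The sums gave a log2 ratio of -0.94, and the medians of log2(CPM + 1) a difference of 0.29, so the direction depends on how cells are combined.

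The receptor-activated SMADs went opposite ways. Smad1 was at 11.1 to 73.7 CPM (median 25.9) in control oocytes, every one of them with at least 5 reads. In control granulosa cells it was at 0 to 68.5 CPM, 4 of 16 had at least 5 reads, and 9 of 16 had none. Its log2 ratio of oocytes over granulosa cells was 1.47 (1.39 to 1.54), and 2.25 without control granulosa cell 16, which alone held 46.0% of the group's Smad1 reads.

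Smad5 was at 0 to 41.5 CPM (median 16.2) in control oocytes and at 0 to 516 CPM (median 32.9) in control granulosa cells. Control granulosa cell 3 held 53.4% of that group's Smad5 reads and decided the size of the ratio. The log2 ratio of oocytes over granulosa cells was -1.98 (-2.03 to -1.92) with it and -0.98 without it. It was -2.39 among cells whose own markers led, and -1.20 between oocytes under 200 CPM and granulosa cells of at least 5000 CPM of granulosa markers. Without cells of 50 CPM or more of endothelial markers it was -0.77, and the medians of log2(CPM + 1) differed by -0.96.

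Smad4, the common partner of the receptor-activated SMADs, was at 49.1 to 261 CPM (median 127) in control oocytes and at 0 to 307 CPM (median 26.02) in control granulosa cells. All 16 oocytes lay above the granulosa median and none above the highest granulosa cell. Oocytes over granulosa cells gave a log2 ratio of 1.07 (1.03 to 1.10), 0.95 to 1.53 with each cell left out, and 0.87 among cells whose own markers led.

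Smad7, the inhibitory SMAD, was scarce everywhere. Summed levels ran from 0.456 CPM in control granulosa cells to 1.92 CPM in DOXO oocytes. At least 5 reads were found in 6 of 16 control and 6 of 16 DOXO oocytes, in 1 of 16 control granulosa cells and in 2 of 13 DOXO granulosa cells. In control granulosa cells 97.6% of its reads came from cell 6, and no ratio of Smad7 held its size when such libraries were left out.

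By summed level all 3 ID genes were lower in oocytes of the control group than in its granulosa cells. Id3 was at 2.75 to 119 CPM (median 17.3) in oocytes and at 0 to 1126 CPM (median 148) in granulosa cells, a log2 ratio of -3.18 (-3.22 to -3.14). Id2 was at 4.56 to 51.4 CPM (median 9.73) in oocytes and at 0 to 414 CPM (median 30.1) in granulosa cells, a log2 ratio of -2.52 (-2.58 to -2.46). No control oocyte reached the granulosa median for Id3, and 1 of 16 did for Id2. Id1 differed less, with a log2 ratio of -0.74 that became -0.17 without control granulosa cell 3 and 0.27 when only oocytes under 200 CPM and granulosa cells of at least 5000 CPM of granulosa markers were kept.

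Id2 in control granulosa cells moved with stroma markers (r = 0.59, rho = 0.73, n = 16 cells), and in DOXO granulosa cells the same values were 0.04 and 0.07 (n = 13 cells). In the 5 control granulosa libraries whose stroma sum (4384 to 13316 CPM) exceeded their granulosa sum, Id2 was at 74.0 to 414 CPM, and all 5 had at least 5 reads. In the other 11 it was at 0 to 398 CPM (median 14.5), with at least 5 reads in 6. Keeping only cells whose own markers exceeded those of the other type, the log2 ratio of Id2 in oocytes over granulosa cells was -1.56 in place of -2.52, and that of Id3 was -3.06. The part of stroma RNA in the Id2 level was not tested.

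**Figure D1:**
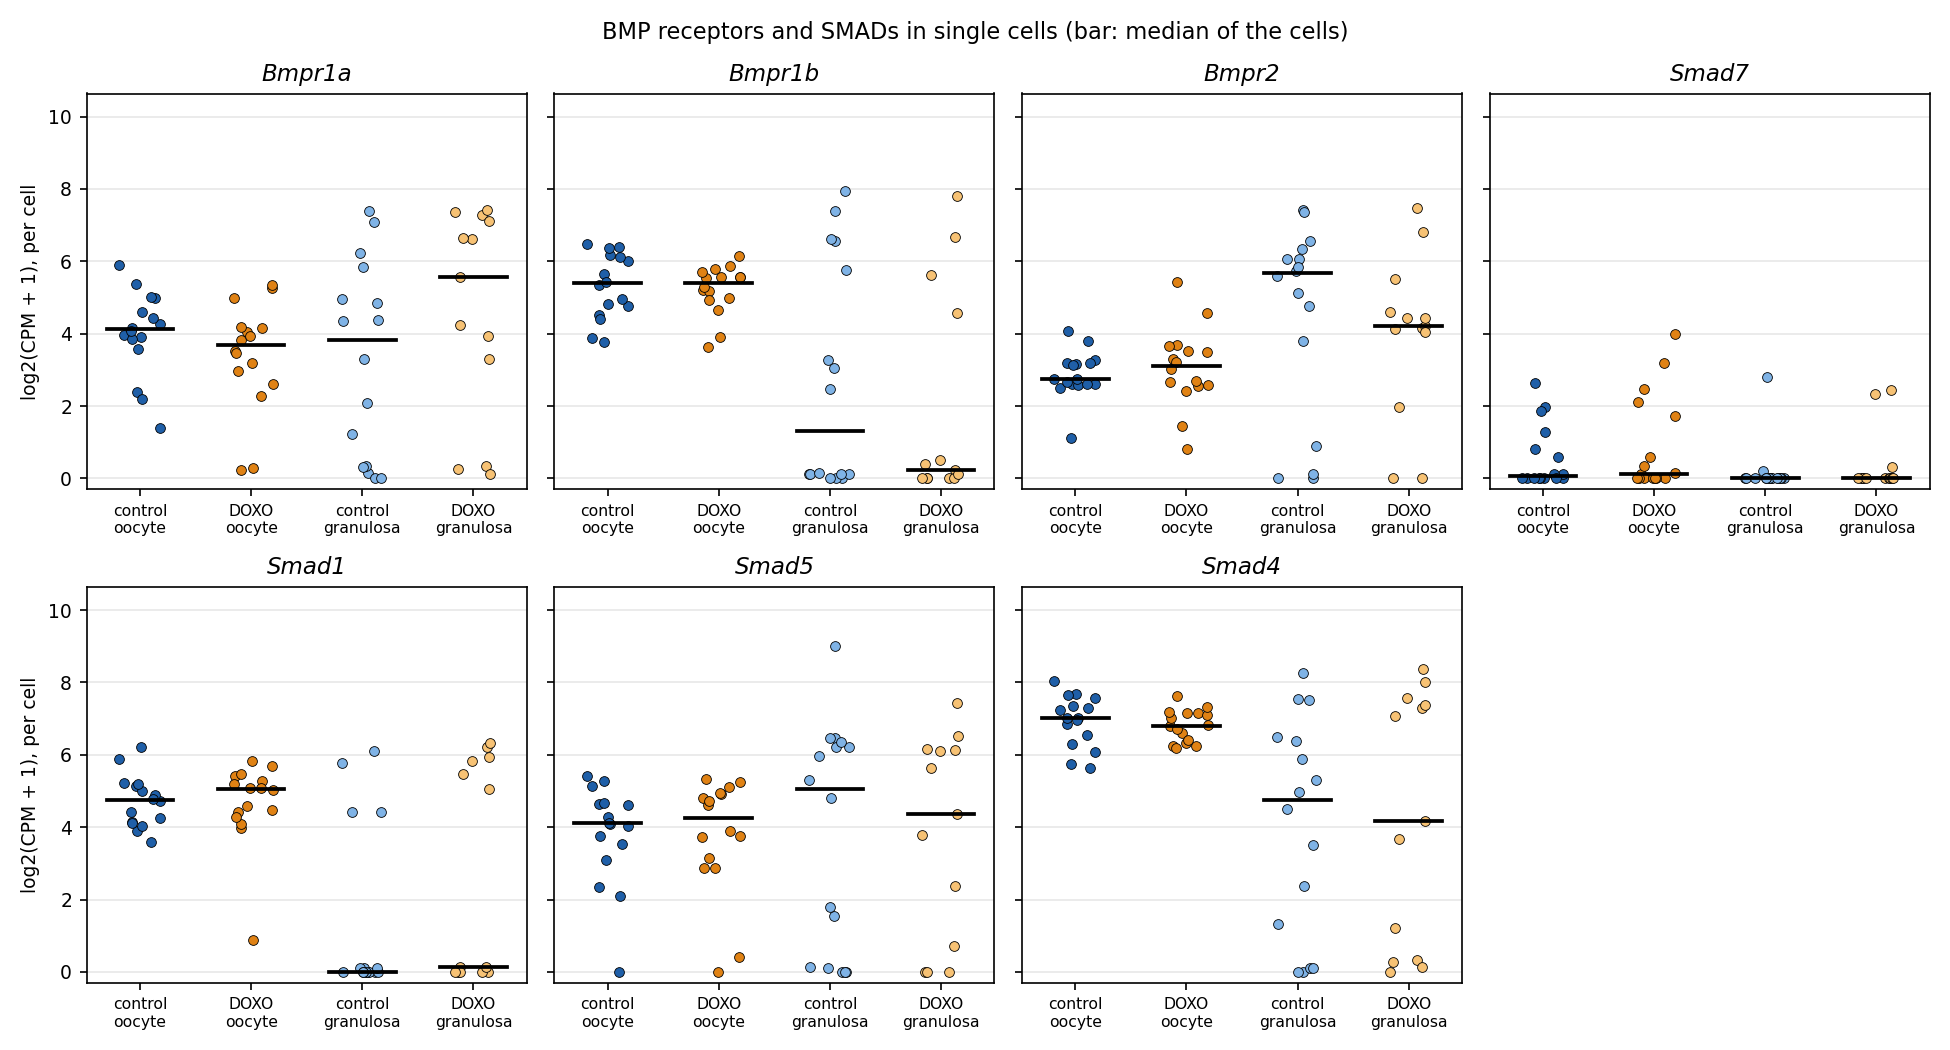
Each point is 1 cell, as log2(CPM + 1) of a receptor or SMAD gene in the 4 groups, and the bar is the median of the cells. Bmpr1b and Smad1 are above 0 in all 16 control oocytes, while 3 and 9 of the 16 control granulosa cells hold no read of them.

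The spread over cells can be put as the cells in which a whole route through these receptors and SMADs was detected. A cell was counted as complete if it had at least 5 reads of Bmpr1a or Bmpr1b, of Bmpr2, of Smad1 or Smad5, and of Smad4. Other receptors and SMADs of the pathway, such as Acvr1, Acvr2a and Smad9, did not enter this count. All 16 control and all 16 DOXO oocytes were complete (exact binomial 95% interval 79.4% to 100% each). These intervals cover the counting of cells within 1 sample only and are no comparison of conditions. In granulosa cells 7 of 16 control (43.8%, interval 19.8% to 70.1%) and 7 of 13 DOXO cells (53.8%, interval 25.1% to 80.8%) were complete. All 3 ID genes were present in every oocyte, and in 7 control and 7 DOXO granulosa cells.

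A granulosa cell with all 3 ID genes was not always complete by that count of receptors and SMADs. Of the 7 such control granulosa cells, 3 were complete and 4 were not, and of the 7 DOXO granulosa cells 4 were complete and 3 were not. Thinning every cell to 5000000 counts gave the same 7 and 7 complete granulosa cells and left 15 of 16 control oocytes complete.

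Levels can be ranked between genes only per length. Per kilobase of the longest annotated transcript, control oocytes held 54.5 CPM of Id1, 40.1 of Smad4 and 24.3 of Id3. Bmpr1b (8.39), Smad1 (7.79), Id2 (7.06), Bmpr1a (3.07) and Smad5 (2.57) followed, and Bmpr2 (0.549) and Smad7 (0.239) closed the order. The interquartile ranges over cells of each neighbouring pair overlap, except between Smad5 and Bmpr2 and between Bmpr2 and Smad7. In DOXO oocytes Id1 stood alone at the top, at 100.4 CPM per kilobase, and Id2, at 31.5, stood between Smad4 and Smad1.

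In control granulosa cells Id3 led with 220.4 CPM per kilobase, then Id1 with 90.9, Id2 with 40.6 and Smad4 with 19.2. Bmpr2 was at 4.23, above Smad1 at 2.81. Every neighbouring pair overlapped in its interquartile range there. In DOXO granulosa cells Id3 (196.6), Id1 (75.5) and Id2 (55.1) kept the first ranks.

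After DOXO, the ID genes had more summed CPM in oocytes, but only Id2 passed 2-fold. Id1, Id3, the receptors and the SMADs stayed within 2-fold. Id2 was 4.47-fold higher in summed CPM, Id3 1.95-fold and Id1 1.84-fold. Of the 10 genes 1 (Id2) was at least 2-fold higher and 0 were lower. Of the 11117 genes that reached 5 CPM in an oocyte group, 6.31% were at least 2-fold higher and 2.45% at least 2-fold lower. At 1.5-fold, 4 of the 10 (Id1, Id2, Id3 and Smad7) were higher and 0 lower, against 11.8% and 7.73% of all genes. Smad7 does not reach the 5 CPM asked of those genes, and without it the count is 3 of 9. The median log2 ratio was 0.30 over the 10 genes, 0.96 over the ID genes and 0.01 over all genes.

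Id2 was at 4.56 to 51.4 CPM (median 9.73) in control oocytes and at 9.77 to 253 CPM (median 40.3) in DOXO oocytes. All 16 DOXO oocytes lay above the control median and 6 above the highest control, which was control oocyte 3. The next highest control oocyte held 22.9 CPM, and 12 DOXO oocytes lay above it. This is a log2 ratio of 2.16 (2.10 to 2.22), which ran from 1.84 without DOXO oocyte 10, the highest cell, to 2.46 without control oocyte 3.

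Id1 was at 7.29 to 275 CPM (median 38.8) in control oocytes and at 42.4 to 226 CPM (median 116) in DOXO oocytes. All 16 DOXO oocytes lay above the control median, but none passed control oocyte 8, the highest of all. That 1 control cell held 26.6% of its group's Id1 reads. With it the log2 ratio was 0.88 (0.85 to 0.91) and without it 1.24, and the medians of log2(CPM + 1) differed by 1.55.

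Id3 was at 2.75 to 119 CPM (median 17.3) in control oocytes and at 5.76 to 342 CPM (median 29.4) in DOXO oocytes. Here 13 of 16 DOXO oocytes lay above the control median and 2 above the highest control. DOXO oocyte 6 held 35.9% of the group's Id3 reads. With it the log2 ratio was 0.96 (0.92 to 1.01) and without it 0.41.

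**Figure D2:**
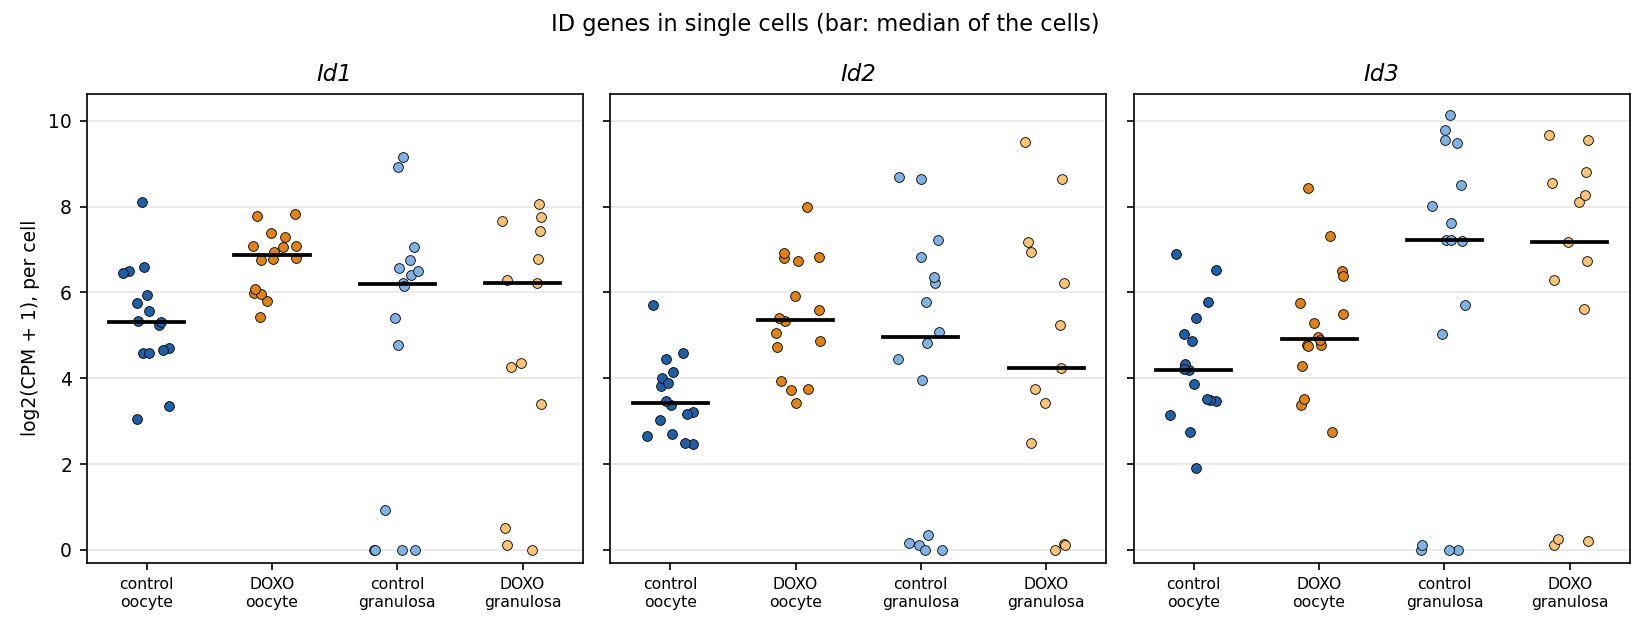
Each point is 1 cell, as log2(CPM + 1) of Id1, Id2 or Id3 in the 4 groups, and the bar is the median of the cells. All 16 DOXO oocytes lie above the control oocyte median for Id1 and Id2, and 13 of 16 do for Id3, while the granulosa groups spread from 0 to the highest levels.

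Markers of other cells were also higher in some DOXO oocytes. Of the 16 granulosa markers 12 had more summed CPM in DOXO oocytes, and their sum was 3.61 to 801.5 CPM in control and 17.6 to 3516 CPM in DOXO oocytes, led by DOXO oocytes 9, 11 and 12. The stroma sum was 0.834 to 917.4 CPM in control and 0.320 to 1882 CPM in DOXO oocytes, with 4 of 8 genes higher. Of the 7 endothelial markers 6 were higher, with a sum of 0 to 34.2 CPM in control and 2.61 to 134.6 CPM in DOXO oocytes, but Cdh5, Kdr and Emcn stayed under 1 CPM in both groups. Those of the granulosa list under 1 CPM were Krt19 and Lgr5 in control oocytes and Lgr5 in DOXO oocytes.

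The ID differences were measured again in the 9 control and 9 DOXO oocytes with under 200 CPM of granulosa markers and under 200 CPM of stroma markers, a selection added after the data were seen. Id2 was at 4.56 to 22.9 CPM (median 9.45) in those controls and at 9.77 to 111 CPM (median 32.2) in those DOXO oocytes, with 7 of 9 above the highest control. Id3 was at 2.75 to 19.3 CPM (median 10.4) and at 9.31 to 82.4 CPM (median 28.6), with 6 of 9 above the highest control. This selection leaves out control oocyte 3, the highest control for both genes, so its counts cannot be set against those over all 16. Id1 had 0 of 9 above the highest control and 8 of 9 above the control median. The log2 ratios there were 1.92 for Id2, 1.47 for Id3 and 0.69 for Id1.

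Without the oocytes that held 50 CPM or more of endothelial markers, the log2 ratios were 2.27 for Id2, 1.11 for Id3 and 0.83 for Id1. Within the DOXO oocytes Id2 went with the granulosa marker sum (Pearson r = 0.52, Spearman rho = 0.44, n = 16 cells, on log2(CPM + 1) values that share each library's total). In control oocytes the same values were -0.07 and -0.14. Id3 went with the stroma sum in both groups (r = 0.61 and rho = 0.51 in DOXO, r = 0.62 and rho = 0.63 in control oocytes). Id1 was lower in DOXO oocytes with more oocyte markers (r = -0.65, rho = -0.57), and in control oocytes these values were -0.43 and -0.48. The median oocyte marker sum was 50562 CPM in control and 35171 CPM in DOXO oocytes, and 5 of the 16 oocyte markers had more summed CPM in DOXO oocytes. The part of these markers in the ID differences was not tested. The DOXO oocytes highest in Id2 were 10, 12, 9, 4 and 11, which include the 3 with most granulosa markers.

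**Figure D3:**
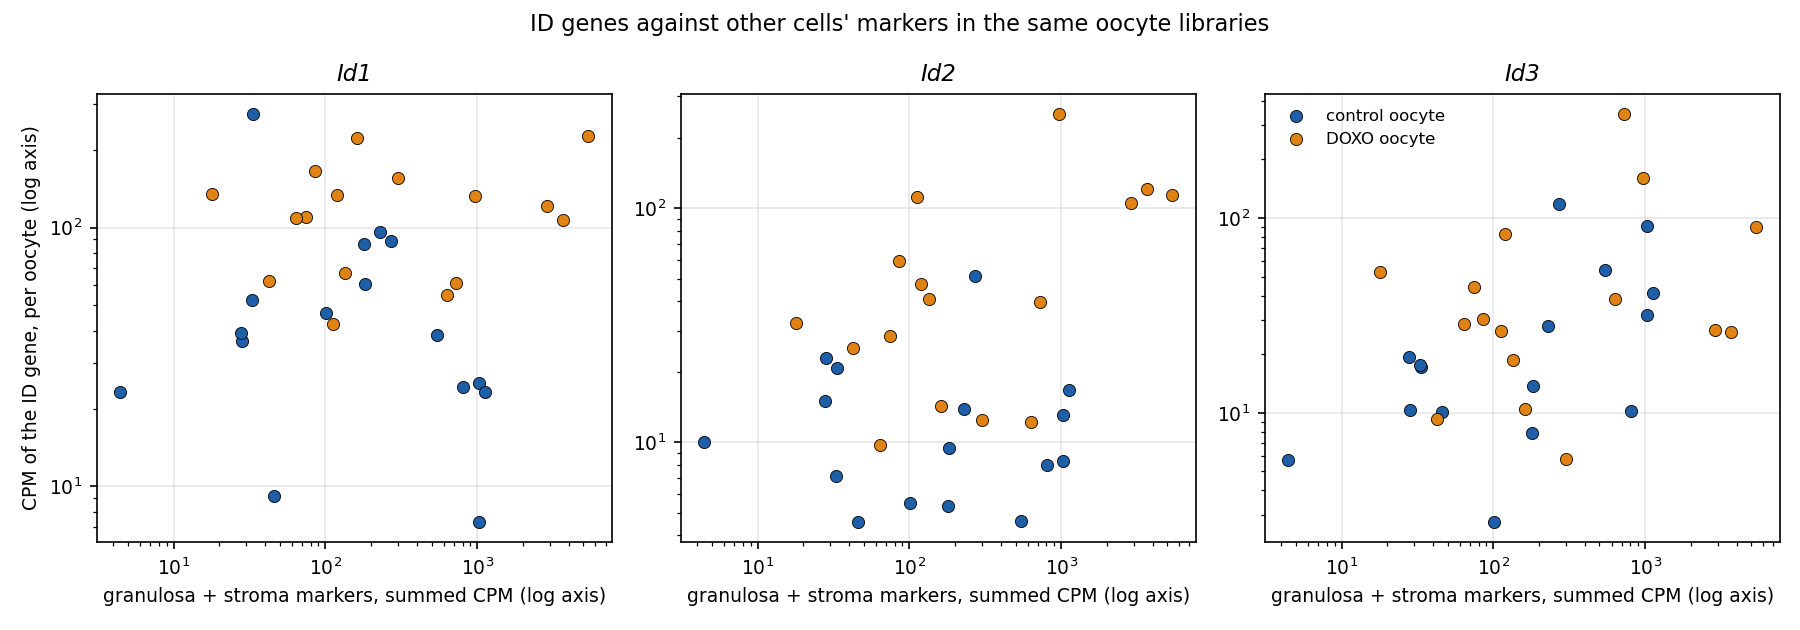
Each point is 1 oocyte, with the summed CPM of the granulosa and stroma markers on the x axis and the CPM of Id1, Id2 or Id3 on the y axis, both log axes. The 3 DOXO oocytes at the far right hold 105 to 121 CPM of Id2. Of the 9 DOXO oocytes under 200 CPM of each marker sum, 9 lie above the median of the 9 such controls for Id2. The same count is 8 for Id1 and 8 for Id3.

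The receptors in oocytes stayed within 2-fold after DOXO. Bmpr1b was at 12.7 to 88.8 CPM in control and 11.3 to 69.7 CPM in DOXO oocytes, a log2 ratio of -0.19 with 8 of 16 DOXO cells above the control median. Bmpr1a was at 1.63 to 58.2 CPM in control and 0.180 to 39.3 CPM in DOXO oocytes, a log2 ratio of -0.39, with 11 of 16 DOXO cells below the control median. For Bmpr2 the log2 ratio was 0.45, but 0.08 without DOXO oocyte 12 and 0.11 in the oocytes with few somatic markers.

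The SMADs also stayed within 2-fold. Smad1 had a log2 ratio of 0.03 (9 of 16 DOXO oocytes above the control median), Smad5 of 0.16 (8 of 16) and Smad4 of -0.24 (7 of 16). Leaving out any 1 cell kept Smad1 between -0.05 and 0.18, Smad5 between 0.01 and 0.28 and Smad4 between -0.31 and -0.19. Smad7 was at 1.02 CPM in control and 1.92 CPM in DOXO oocytes, with 6 of 16 cells at 5 reads or more in each, and its log2 ratio of 0.91 was 0.29 without DOXO oocyte 9.

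**Figure D4:**
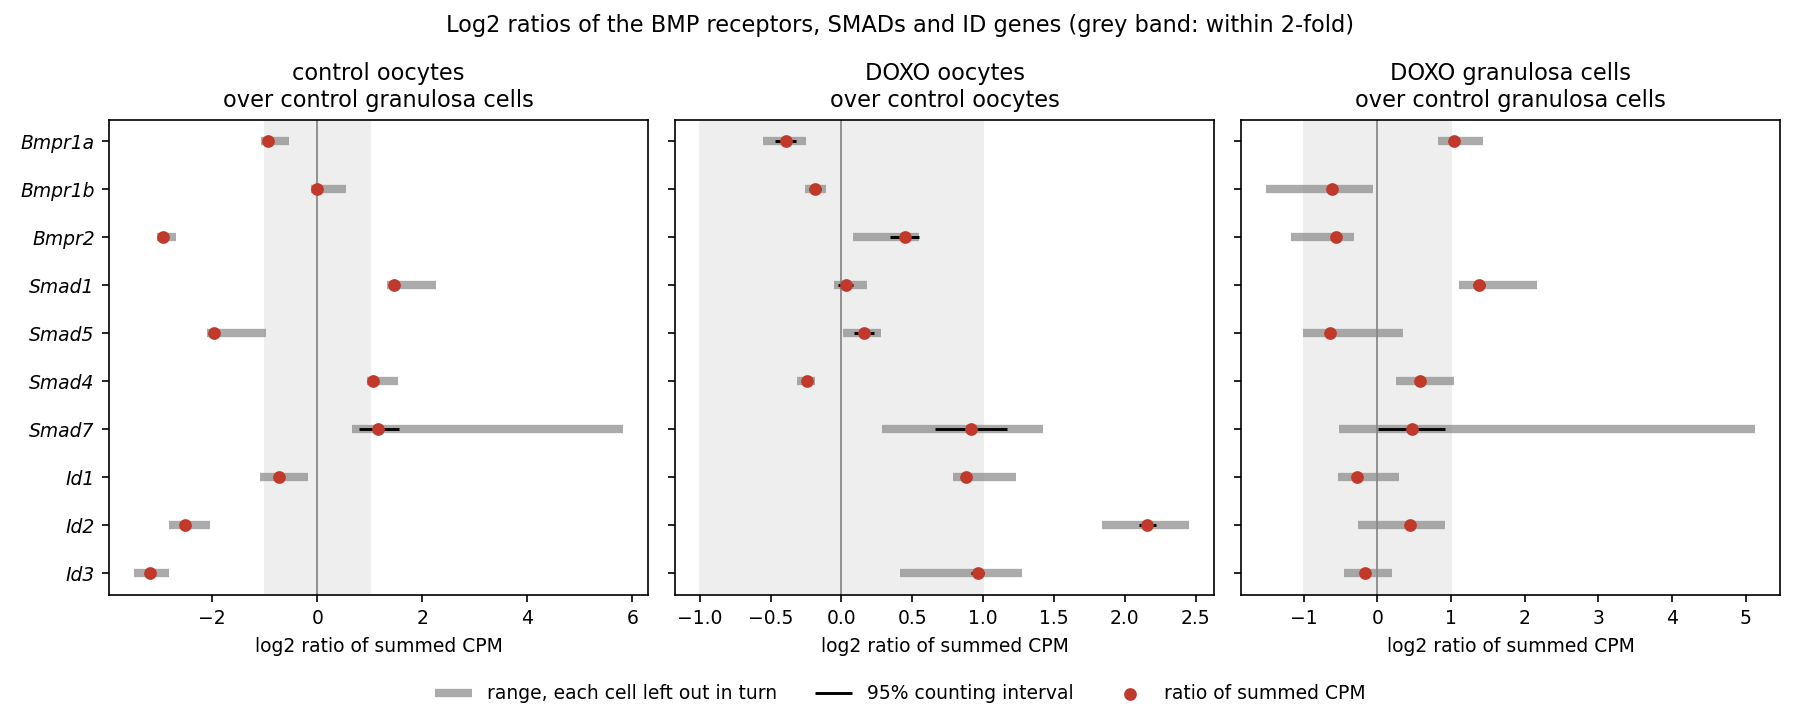
Log2 ratios of summed CPM for the 10 genes in the 3 comparisons, with the 95% counting interval (black) and the range when each cell is left out in turn (grey bar), and a band for ratios within 2-fold. After DOXO only Id2 lies outside the band in oocytes, and Bmpr1a and Smad1 lie outside it in granulosa cells, with Bmpr1a reaching 0.82 when 1 cell is left out.

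Over all granulosa cells no ID gene reached 1.5-fold in summed CPM after DOXO, in either direction. Id1 was at 105 CPM in control and 87.5 CPM in DOXO granulosa cells by sum, Id2 at 79.9 and 108, and Id3 at 282 and 251. Their log2 ratios were -0.27, 0.44 and -0.16. Leaving out 1 cell turned the sign of each, with Id2 at -0.26 without DOXO granulosa cell 10, and Id1 at 0.30 and Id3 at 0.20 without control granulosa cell 3. Keeping 8 control and 5 DOXO cells of at least 5000 CPM of granulosa markers, Id1 was at -0.04, Id2 at -2.31 and Id3 at -0.48. For Id2 the medians there were 7.38 CPM in control and 9.66 CPM in DOXO cells. Control granulosa cell 15 held 398 CPM of Id2, and the next highest of those 8 controls held 27.3 CPM. Without cells of 50 CPM or more of endothelial markers Id1 was at 0.39, Id2 at 0.87 and Id3 at 0.90. Medians over all cells were 72.3 and 73.9 CPM for Id1, 30.1 and 17.8 CPM for Id2, and 148 and 144 CPM for Id3, and the ranges overlapped throughout. The difference in the DOXO ratio between oocytes and granulosa cells was not tested.

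Of the 10 genes 2 (Bmpr1a and Smad1) were at least 2-fold higher and 0 at least 2-fold lower in DOXO granulosa cells. Over 12192 genes 20.6% were higher and 20% lower by the same rule, so these counts do not stand out from the background. At 1.5-fold 2 were higher and 2 lower (Bmpr1b and Smad5), against 29.3% and 29.8% of all genes. The median log2 ratio was 0.14 over the 10 genes and -0.03 over all genes. The groups also differed in their makeup: 14 of 16 oocyte markers were higher in DOXO granulosa cells, and the oocyte marker sum was 248 to 15413 CPM (median 1572) in control and 363 to 40024 CPM (median 8505) in DOXO libraries.

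Bmpr1a was at 0 to 166 CPM (median 14.2) in control and 0.0811 to 169 CPM (median 46.6) in DOXO granulosa cells. Of the DOXO cells 9 of 13 lay above the control median and 1 above the highest control. DOXO over control gave a log2 ratio of 1.03 (0.99 to 1.08), 0.82 without DOXO granulosa cell 8 and 0.996 without cell 15, the blood-rich library. Among cells whose own markers led, 11 control and 5 DOXO, the ratio was 1.81.

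Smad1 was found at 5 reads or more in 4 of 16 control and 6 of 13 DOXO granulosa cells. The 4 control cells held 20.3 to 68.5 CPM and the 6 DOXO cells 32.3 to 78.6 CPM, and the others were at or near 0 in both groups. Summed levels of 10.6 and 27.7 CPM gave a log2 ratio of 1.38 (1.30 to 1.46), while the medians of log2(CPM + 1) differed by 0.13. All 5 DOXO libraries with more granulosa than oocyte markers held it, at 43.0 to 78.6 CPM, and 1 of the 8 with more oocyte markers did. Those 5 include cell 13, rich in stroma markers, and cell 15, rich in blood markers. In control libraries 3 of 11 and 1 of 5 held it. The log2 ratio was 2.92 among cells with more granulosa than oocyte markers and 2.42 among those of at least 5000 CPM of granulosa markers.

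Bmpr2 and Bmpr1b were lower by sum in DOXO granulosa cells, within 2-fold. Bmpr2 had a median of 49.8 CPM in control and 17.6 CPM in DOXO cells, and 11 of 13 DOXO cells lay below the control median. Its log2 ratio was -0.56, which was -1.17 without DOXO granulosa cell 4 and -2.05 among cells whose own markers led, but 0.00 without the cells rich in endothelial markers. Bmpr1b had a log2 ratio of -0.61, and -1.51 without DOXO granulosa cell 12, which held 50.02% of the group's Bmpr1b reads, but -0.05 without control granulosa cell 13. It was -0.18 among cells whose own markers led and 0.29, with the sign turned, in cells of at least 5000 CPM of granulosa markers.

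Smad5 had a log2 ratio of -0.64 that was 0.35 without control granulosa cell 3 and 0.32 in cells of at least 5000 CPM of granulosa markers. Smad4 had one of 0.57, and 1.04 without that same cell, while its medians of log2(CPM + 1) differed by -0.57. Neither gene kept a direction across these choices.

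The ligands of the pathway were read from a wider list of 57 genes, of which 52 had a row and the other 5 were not analysed here. After DOXO 10 of the 52 were at least 2-fold higher in oocytes and 7 at least 2-fold lower, with a median log2 ratio of 0.09, beside 6.31% and 2.45% of all genes. Those shares are of genes that reached 5 CPM, as 31 of the 52 did in an oocyte group. The counts of 10 and 7 took in all 52, so counts and shares are not directly comparable. Bmp15, the oocyte's own ligand, was at 0.254 to 75.8 CPM (median 33.6) in control and 0 to 42.5 CPM (median 13.3) in DOXO oocytes. Of the DOXO oocytes 15 of 16 lay below the control median. Its log2 ratio was -1.41, between -1.59 and -1.30 with each cell left out, and -1.25 in the oocytes with few somatic markers.

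Bmp7, a ligand of the same receptors that somatic cells also make, went the other way. It was at 0 to 44.2 CPM (median 5.07) in control and 0 to 79.8 CPM (median 19.5) in DOXO oocytes, with 12 of 16 above the control median. It had a log2 ratio of 1.34, between 1.18 and 1.57 with each cell left out, and 1.18 in the oocytes with few somatic markers. The ligand Bmp2 was at 3.70 CPM in control and 0.0112 CPM in DOXO oocytes, but 87.4% of its control reads came from control oocyte 5.

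Tgfbr1, a type I receptor of the TGF-beta branch, had a log2 ratio of 1.34 in oocytes and 0.79 without DOXO oocyte 4, the library whose raw data are stated to be lost. Among the antagonists, Fst, which binds activins and BMPs, had a log2 ratio of 2.61, and Bambi, a decoy receptor, one of 1.39. Both are also abundant in granulosa cells (283 and 298 CPM in control granulosa cells). In the oocytes with few somatic markers Fst was at 0.369 CPM in control and 1.55 CPM in DOXO oocytes, and Bambi had a log2 ratio of -0.18. Fst is itself among the granulosa markers used for that choice of oocytes, so its levels there are partly set by it. The secreted antagonists Bmper and Nbl1 had log2 ratios of -1.63 and -2.64, and for Nbl1 the sign turned in the oocytes with few somatic markers (4.02).

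Between the control cell types 16 of the 52 genes were at least 2-fold higher in oocytes and 26 lower, with a median log2 ratio of -0.99, beside 29% and 31.3% of all genes. The number higher is thus near the background, although the shares are of genes that reached 5 CPM, as only 40 of the 52 did. The counts took in all 52. The ligands Bmp15 (36.6 against 0.0222 CPM), Gdf9 (964 against 68.1 CPM) and Bmp6 (15.9 against 2.95 CPM) were higher in oocytes. Bmp2, Bmp7 and Amh were lower, with log2 ratios of -3.22, -2.74 and -3.54. Control granulosa cell 2 held 64.4% of the group's Bmp2 and 53.3% of its Bmp7 reads, and the ratios without it were -1.84 and -1.75. By medians of log2(CPM + 1) Bmp7 was higher in oocytes, with a difference of 2.40, and control granulosa cell 11 held 97.2% of the granulosa reads of Bmp6.

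Of the 9 antagonists measured 7 were lower in oocytes, with a median log2 ratio of -3.19. Fst (-6.04), Bambi (-4.98), Nbl1 (-3.19), Twsg1 (-2.71) and Bmper (-2.27) were among them. The receptors Amhr2 (-4.54), Tgfbr2 (-5.27), Rgmb (-1.25) and Tgfbr3 (-1.22), the SMAD of the activin branch Smad3 (-1.87), and the targets Hey1 (-3.30) and Msx1 (-4.62) were lower too. Of the intracellular regulators the ubiquitin ligase Smurf1, which removes SMADs, was higher in oocytes (3.06), and Skil (-4.86), Pmepa1 (-4.30) and Tob1 (-1.58) were lower. By medians of log2(CPM + 1) Smad3 (1.81) and Pmepa1 (1.68) were higher in oocytes, and Hey1 lay above the granulosa median in 14 of 16, since few granulosa libraries held most of the reads.

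The bHLH factors that ID proteins can meet were split by cell type. Figla, Sohlh1 and Sohlh2, regulators of the primordial follicle oocyte, were higher in control oocytes (log2 ratios 3.22, 3.19 and 11.8), and so was the E protein Tcf3 (1.06), while the E protein Tcf4 was lower (-2.27). After DOXO 0 of the 6 listed partners passed 2-fold in oocytes in either direction, where 6.31% of all genes were higher and 2.45% lower, so a count of 0 is near the background.

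In granulosa cells after DOXO 15 of the 52 genes were at least 2-fold higher and 10 lower, beside 20.6% and 20% of all genes, so the number lower is at the background. The shares are of genes that reached 5 CPM, as 43 of the 52 did, while the counts took in all 52. The genes that were higher included the oocyte genes Gdf9 (log2 ratio 4.74), Figla (1.96), Sohlh1 (1.31) and Sohlh2 (6.57). Bmp15 was at 0.0222 CPM in control and 11.4 CPM in DOXO granulosa cells, with 74.7% of its reads in DOXO granulosa cell 10. Gdf9 reached 1817 CPM in DOXO granulosa cells, above the 964 CPM of control oocytes, with 8 of 13 libraries above the highest control granulosa cell. Among cells whose own markers led, the log2 ratio of Gdf9 was 2.10 and that of Figla 0.41. Both genes are among the oocyte markers used for that choice of cells, so these values are partly set by it. Of the other genes, Acvr2a (9.85 and 27.8 CPM), Tgfbr1 (log2 ratio 1.00) and Bmper (1.88) were higher, and Fst (-1.38), Smad3 (-1.36), Smurf1 (-2.50) and Pmepa1 (-3.92) lower.

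Genes most like each member were named by Pearson correlation of log2(CPM + 1) over all 61 cells among 13266 genes. These values are a description that takes in differences between oocytes and granulosa libraries, whose part was not tested. Smad1 was most like Cyb5d2 (r = 0.77), Bmpr1b most like Ccdc126 (0.77), Smad4 most like Tcf3 (0.76) and Bmpr2 most like Anp32a (0.68). Values were lower for Id1 (Gde1, 0.62), Smad5 (Pus7, 0.59), Id2 (Mrpl21, 0.58), Id3 (Phldb2, 0.58), Smad7 (Phf11d, 0.52) and Bmpr1a (Rpa2, 0.49). Over the 16 control granulosa cells alone, Id2 was most like Serping1 (0.94), Lama2 (0.82) and Mfap4 (0.81), Id1 most like Armcx2 (0.83) and Id3 most like Rbm7 (0.80).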

How the data were processed

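The data are single-cell SMART-seq libraries (full-length cDNA from 1 cell, no molecular identifiers). The table the authors deposited holds estimated counts: 34.0% of its nonzero entries carry a fraction. Per the submitters' processing notes, Partek, Bowtie2, HISAT2, DESeq2 and mm10 were used; their roles are not given in the sources used here. Counts were rounded, summed per group and divided by the summed total (CPM). Ratios used a floor of 3 counts per group and exact Clopper-Pearson counting intervals. No group has replicates, so no p-value is given; p-values over cells would measure cells, not animals. Members, marker lists and pathway lists were chosen with earlier results of these data known. All 10 members are named; other pathway genes needed 20 CPM in a group and 2-fold between control cell types, or 2-fold after DOXO holding 1.5-fold with any cell left out. Python 3.11.15, numpy 2.4.6, pandas 2.3.3, edgeR 4.0.16 (TMM) and DESeq2 1.42.0 (size factors) were used. The calculation was tested on simulated data. Alternatives were other scalings, averages, filters, folds and choices of libraries. No pair of cells agreed within sampling noise. DOXO oocyte 4, whose raw data are stated to be lost, was kept. Rows with date-like names (22, with 0.144% of counts) could not be assigned to genes and stayed in the totals.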

Additional observations from a re-analysis of the deposited data

Results flagged for a closer look

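For 3 genes the log2 ratio of DOXO over control had opposite signs in oocytes and granulosa cells, also at both ends of the counting interval and with any 1 cell left out. Each group is 1 sample, and the difference was not tested. Bmpr1a was at -0.39 in oocytes and 1.03 in granulosa cells. Bmpr2 was at 0.45 in oocytes and -0.56 in granulosa cells. Smad4 was at -0.24 in oocytes and 0.57 in granulosa cells. The signs of Bmpr2 and Smad4 in granulosa cells did not hold for every choice of cells: Bmpr2 was at 0.00 without cells rich in endothelial markers, and Smad4 was at -0.57 by medians of log2(CPM + 1).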

How the results depend on the processing

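No paired analysis was possible because the numbers in the labels only name cells, each group was counted as 1 sample, and no test was made. Of 136 counts of genes past the fold under settings other than leaving out 1 cell, 108 stayed within 1.5 times the reported count and 28 did not. In DOXO oocytes the number of members higher, 1, was 4 at 1.5-fold and with equal weight for each cell, 3 without cells rich in endothelial markers, 3 without DOXO oocyte 4, 3 in oocytes with few granulosa and stroma markers (added after the data were seen), and 2 by medians and in oocytes with few granulosa markers. Id3 (0.96), Smad7 (0.91) and Id1 (0.88) lie just under 2-fold on the log2 scale. In DOXO granulosa cells the number higher, 2, was 4 without endothelial-rich cells and 1 by medians and without DOXO granulosa cell 15 (also added), and the number lower, 0, was 2 at 1.5-fold, by medians and in cells rich in granulosa markers, and 1 without endothelial-rich cells and in cells whose own markers led. Between control cell types the number higher, 3, was 1 in oocytes with few granulosa and stroma markers and 1 in cells whose own markers led. Smad7 turned sign there, from 1.16 to -0.41 with few and many granulosa markers and to -0.83 in oocytes with few granulosa and stroma markers.

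In the pathway list, DOXO granulosa cells had 15 higher and 10 lower, which became 7 and 4 by medians and 6 and 4 among genes of at least 20 CPM. DOXO oocytes had 10 higher and 7 lower, which became 2 and 1 by medians and 4 and 1 at 20 CPM, with 16 higher at 1.5-fold. Control oocytes against control granulosa cells had 16 higher and 26 lower, with 7 higher at 20 CPM and 10 lower by medians. Leaving out each cell in turn gave 1 to 3 members higher and 0 to 0 lower in DOXO oocytes, 1 to 2 higher and 0 to 2 lower in DOXO granulosa cells, and 2 to 3 higher and 4 to 6 lower between cell types. For the list the ranges were 7 to 12 and 5 to 9, 14 to 16 and 9 to 12, and 14 to 17 and 24 to 27. TMM and DESeq2 scaling left every count of members as reported. Smad7, at few reads, had ratios that rested on few libraries, and each group is 1 sample. The part of depth in its low reads was not tested.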
